A study of Mus musculus with 9 samples.

Results

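The genes described here are components of the mammalian circadian clock, together with Dbp and Tef, transcription factors that the clock drives. The members were Dbp, Tef, Per1, Per2, Per3, Cry1, Cry2, Clock, Arntl (now named Bmal1) and Nr1d2. They were taken as all probe sets whose annotation names one of these genes alone, which gave 18 probe sets for the 10 genes, out of 22626 probe sets and 12393 genes analysed. The list was drawn up with the response to the antibody already known, because Dbp stood high among the changes, so all values of the members that involve the antibody arrays are a description, and the calls counted beside them are no test of the members.

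RNA of MLP29 cells, a line of mouse hepatic progenitor cells, was measured on 9 Affymetrix arrays, 1 for each of 3 conditions in each of 3 experiments. All cells were first starved in 0.1% serum for at least 16 h. They were then treated for 24 h with a function-blocking antibody against α5β1 integrin (clone BMB5, 10 µg/ml) or with the growth factor HGF/SF1, which binds the receptor Met (20 ng/ml), or served as controls, called untreated here. Experiments are numbered here in the order of deposit. The methods of the study mention a control antibody among other control treatments, but the labels call these arrays only control, so whether they received one is not given. Adding an antibody and blocking the integrin therefore cannot be told apart here. The cells were sampled at a single time after treatment, and the hour of the day at which each experiment was harvested is not given in the sources used here. Values are log2 expression values per probe set, on which a difference of 1 is a 2-fold change. They are compared between arrays for the same probe set and never between probe sets.

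In the circadian clock, CLOCK and BMAL1 bind DNA as a pair and switch on the genes of their own repressors, the PER and CRY proteins, which then return to the nucleus and shut the pair off. The nuclear receptors REV-ERBα and REV-ERBβ, encoded by Nr1d1 and Nr1d2, repress Arntl and form a second loop. DBP, TEF and HLF are bZIP factors of the PAR family that bind D-boxes and carry the rhythm to output genes, in the liver to genes of metabolism and detoxification. Clocks of this kind run in liver and in cultured cells, and in culture they can be set by serum, glucocorticoids and other signals.

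The clock acts on these genes through short sites in DNA. The promoters of members discussed below were read from RefSeq (GRCm38.p6), from 250 bases before to 50 bases after a start site. Sites elsewhere, such as farther upstream or in introns, were not searched, so a gene without a match here may hold one there. Promoters were found for 9 of the 10 genes, 14 in all, and Per2 was not matched. The E-box CACGTG, bound by CLOCK and BMAL1, the D-box TTATGTAA, the cAMP response element TGACGTCA and the half-site AGGTCA of REV-ERB and ROR receptors were searched on both strands, and none of the matches found overlapped another. They are capitalized in the sequences, which are written 5′ to 3′ on the strand of the gene. Dbp and Nr1d2 are shown as the genes without an E-box in this window that were high on antibody arrays, Per1 and Cry1 as repressor genes with one, and Per3 for its D-boxes. The intervals are chr7:45704997-45705296 on the + strand for Dbp, chr14:18239057-18239356 on the - strand for Nr1d2, chr11:69098699-69098998 on the + strand for Per1, chr10:85185005-85185304 on the - strand for Cry1 and chr4:151044616-151044915 on the - strand for Per3.
Dbp: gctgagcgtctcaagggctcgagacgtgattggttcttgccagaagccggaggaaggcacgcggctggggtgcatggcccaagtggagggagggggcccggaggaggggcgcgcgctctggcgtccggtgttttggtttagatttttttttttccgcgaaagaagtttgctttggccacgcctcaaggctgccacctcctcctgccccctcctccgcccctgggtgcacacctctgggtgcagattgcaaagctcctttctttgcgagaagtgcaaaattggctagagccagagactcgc
Nr1d2: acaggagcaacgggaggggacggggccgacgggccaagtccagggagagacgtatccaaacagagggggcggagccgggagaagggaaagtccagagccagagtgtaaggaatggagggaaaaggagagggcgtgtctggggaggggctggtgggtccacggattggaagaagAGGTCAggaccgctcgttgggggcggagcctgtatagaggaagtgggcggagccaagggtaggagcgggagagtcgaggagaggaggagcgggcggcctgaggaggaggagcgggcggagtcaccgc
Per1, start site 1: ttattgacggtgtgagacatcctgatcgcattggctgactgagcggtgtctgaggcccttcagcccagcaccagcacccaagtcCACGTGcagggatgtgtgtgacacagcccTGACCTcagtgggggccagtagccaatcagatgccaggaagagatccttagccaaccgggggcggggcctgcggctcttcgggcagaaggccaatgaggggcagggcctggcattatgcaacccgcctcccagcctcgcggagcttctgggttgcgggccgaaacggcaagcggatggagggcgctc
Cry1: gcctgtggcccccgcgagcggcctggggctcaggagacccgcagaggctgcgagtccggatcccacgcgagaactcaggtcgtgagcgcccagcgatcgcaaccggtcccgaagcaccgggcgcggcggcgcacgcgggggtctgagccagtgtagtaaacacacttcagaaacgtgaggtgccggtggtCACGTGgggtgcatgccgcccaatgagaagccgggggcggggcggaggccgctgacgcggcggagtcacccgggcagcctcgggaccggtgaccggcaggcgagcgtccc
Per3: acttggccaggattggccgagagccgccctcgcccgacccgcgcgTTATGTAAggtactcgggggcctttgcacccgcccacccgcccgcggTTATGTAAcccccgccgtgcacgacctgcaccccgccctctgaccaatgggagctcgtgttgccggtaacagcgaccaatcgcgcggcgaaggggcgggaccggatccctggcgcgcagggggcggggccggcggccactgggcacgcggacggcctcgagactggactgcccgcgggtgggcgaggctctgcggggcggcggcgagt

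With positions counted from the start site, -1 being the base before it, the E-box began at -166 in Per1 and at -60 in Cry1. It was also found at both start sites of Tef, at -127 and -138. In all, 4 of the 14 promoters held an E-box, against 7.15% of 32851 RefSeq promoters of the same length. Per3 alone of the 14 promoters held the D-box, 2 times, beginning at -205 and -158, against 0.938% of all promoters. The half-site lay in 4 of the 14, among them Nr1d2 at -77 and Per1 at -137, against 16.3% of all promoters. The cAMP response element was found in 0 of the 14 and in 1.79% of all promoters. These matches describe the letters of the windows and were not measured in the cells.

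Dbp showed the widest separation of the conditions among the members. Its brighter probe set read 7.46, 9.87 and 9.38 in experiments 1, 2 and 3 on antibody arrays. It read 7.15, 7.15 and 6.16 on HGF/SF1 arrays, and 6.98, 7.11 and 6.12 on untreated arrays. All 3 antibody arrays lay above all 6 others, but the antibody array of experiment 1 was near them while those of experiments 2 and 3 were far above. As means, Dbp was at 8.90 ± 1.27 with the antibody, 6.82 ± 0.57 with HGF/SF1 and 6.74 ± 0.54 untreated (SD, n = 3 each), and the last 2 did not differ beyond their spread. Antibody minus untreated was 2.17 (SE 0.60), a 4.49-fold higher level, made of 0.48, 2.76 and 3.26 in the 3 experiments. More RNA per cell and more cells that express the gene cannot be told apart on such arrays. The second probe set of Dbp gave the same picture, with 6.48, 8.83 and 8.93 on antibody arrays, 6.30, 6.30 and 6.09 on HGF/SF1 arrays and 6.20, 6.18 and 5.62 on untreated arrays. Its antibody minus untreated difference was 2.08 (SE 0.57), and after centring each probe set on its mean the pair differed by a root mean square of 0.297 over the 9 arrays. By the size of the difference, Dbp ranked 10 of 12393 genes from the highest for antibody against untreated, and 3521 for HGF/SF1 against untreated.

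Tef, the close relative of Dbp that binds the same D-boxes, was not separated in this way. It read 8.01, 8.67 and 8.50 on antibody arrays, 8.65, 8.19 and 7.97 on HGF/SF1 arrays and 8.28, 8.30 and 7.71 on untreated arrays. The 3 conditions overlapped, and the highest HGF/SF1 array was close to the highest antibody array. Antibody minus untreated was 0.30 (SE 0.25), with -0.27, 0.37 and 0.79 in the 3 experiments, so that the antibody array was lower in experiment 1 and higher in the other two. The other probe sets of Tef gave 0.34 (SE 0.38) and 0.02 (SE 0.10).

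Among the repressors, Per1, a period gene that also responds to signals from outside the cell, was the one with a large difference. It read 5.55, 7.44 and 8.61 on antibody arrays, 5.78, 5.75 and 5.97 on HGF/SF1 arrays and 5.63, 5.86 and 5.76 on untreated arrays. In experiment 1 the antibody array was the lowest of all 9, and in experiments 2 and 3 it was far above the rest, so that the groups overlapped. The HGF/SF1 and untreated arrays, in contrast, lay within a narrow band, and the SD was 1.54 with the antibody, 0.12 with HGF/SF1 and 0.12 untreated. Antibody minus untreated was 1.45 (SE 0.62), or 2.73-fold, made of -0.08, 1.57 and 2.85, and ranked 37 of 12393 genes. A single probe set names Per1.

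**Figure D1:**
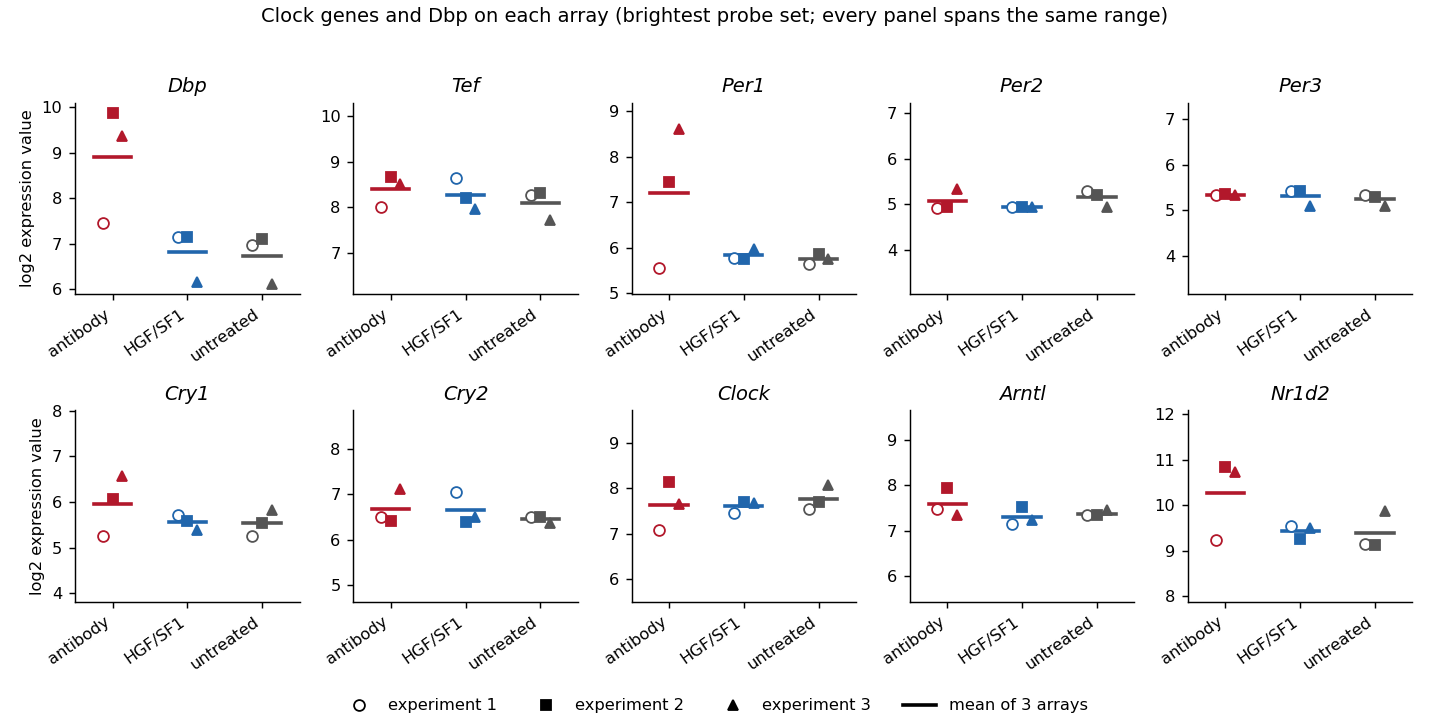
Log2 expression value of the brightest probe set of each member on each of the 9 arrays, grouped by condition, with the symbol for the experiment and a line for the mean of 3 arrays; the panels span equal ranges around different levels. Dbp, Per1 and Nr1d2 are high on the antibody arrays of experiments 2 and 3, while the antibody array of experiment 1 reads 7.46, 5.55 and 9.25 for these genes, close to the HGF/SF1 and untreated arrays.

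Per2 and Per3, the other period genes, stayed within narrow ranges. Per2 read 4.92, 4.94 and 5.34 on antibody arrays, 4.94 on each of the 3 HGF/SF1 arrays and 5.30, 5.21 and 4.94 on untreated arrays. A single value stood on 5 of its 9 arrays (within 1e-06), as happened on 3 or more arrays for 17.5% of all probe sets, and this limits what its differences can show. Antibody minus untreated was -0.08 (SE 0.14) for this probe set and 0.21 (SE 0.28) for the second one. Per3 read 5.33, 5.35 and 5.34 on antibody arrays, 5.43, 5.43 and 5.09 on HGF/SF1 arrays and 5.33, 5.30 and 5.09 on untreated arrays. Its antibody arrays lay just above the untreated ones, the nearest pair reading 5.332 and 5.326, with a difference of means of 0.10 (SE 0.12), and its other probe sets gave 0.29 (SE 0.17) and 0.16 (SE 0.12). All probe sets of Per2 and Per3 lay below the median over all probe sets, 6.02, and no detection call was used here.

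The cryptochromes, which repress CLOCK and BMAL1 together with the PER proteins, differed less than Per1. Cry1 read 5.25, 6.06 and 6.58 on antibody arrays, 5.71, 5.58 and 5.38 on HGF/SF1 arrays and 5.26, 5.54 and 5.83 on untreated arrays. The groups overlapped, with the antibody array of experiment 1 the lowest of the 9 and those of experiments 2 and 3 the highest. Antibody minus untreated was 0.42 (SE 0.31), made of -0.01, 0.52 and 0.75. Cry2 read 6.49, 6.41 and 7.11 on antibody arrays, 7.04, 6.39 and 6.49 on HGF/SF1 arrays and 6.49, 6.49 and 6.36 on untreated arrays. A single antibody array, that of experiment 3, and a single HGF/SF1 array, that of experiment 1, stood above the rest. Antibody minus untreated was 0.23 (SE 0.22). Cry2 held a single value on 3 of its 9 arrays, which limits what this difference can show.

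Nr1d2, the repressor of the second loop, read 9.25, 10.84 and 10.73 on antibody arrays, 9.54, 9.26 and 9.51 on HGF/SF1 arrays and 9.16, 9.13 and 9.88 on untreated arrays. The antibody arrays of experiments 2 and 3 lay above all others, and that of experiment 1 lay within the range of the untreated arrays. Antibody minus untreated was 0.88 (SE 0.40), or 1.84-fold, made of 0.09, 1.70 and 0.86, and ranked 144 of 12393 genes. The second probe set gave 0.71 (SE 0.59), with -0.31, 1.59 and 0.85.

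The activators were among the members with the smallest differences. Clock, which encodes the partner of BMAL1, read 7.08, 8.13 and 7.66 on antibody arrays, 7.44, 7.70 and 7.66 on HGF/SF1 arrays and 7.54, 7.70 and 8.07 on untreated arrays. Its antibody arrays spread from below to above all others, and antibody minus untreated was -0.14 (SE 0.25), with -0.23 (SE 0.18) for its second probe set. Arntl, which encodes BMAL1, read 7.49, 7.94 and 7.34 on antibody arrays, 7.15, 7.53 and 7.23 on HGF/SF1 arrays and 7.34, 7.34 and 7.46 on untreated arrays. The groups overlapped, and antibody minus untreated was 0.21 (SE 0.17).

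Over the 10 members, limma with a mean per condition called 2, Dbp and Per1, at an unadjusted p under 0.05 for antibody against untreated, both higher. Of all 12393 genes, 12.6% were called in this comparison and 4.68% were called higher. Since the members were chosen with this comparison known, nothing is read from that count. Groups did not overlap for Dbp and Per3, both higher with the antibody, where 6.21% of all genes had antibody arrays above all untreated ones. The median difference of the members was 0.26, against -0.00 for all genes. After Benjamini-Hochberg adjustment over all probe sets, 0 members passed 0.05 in limma, where 5 of the 22626 probe sets and 0.0403% of the genes passed.

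**Figure D2:**
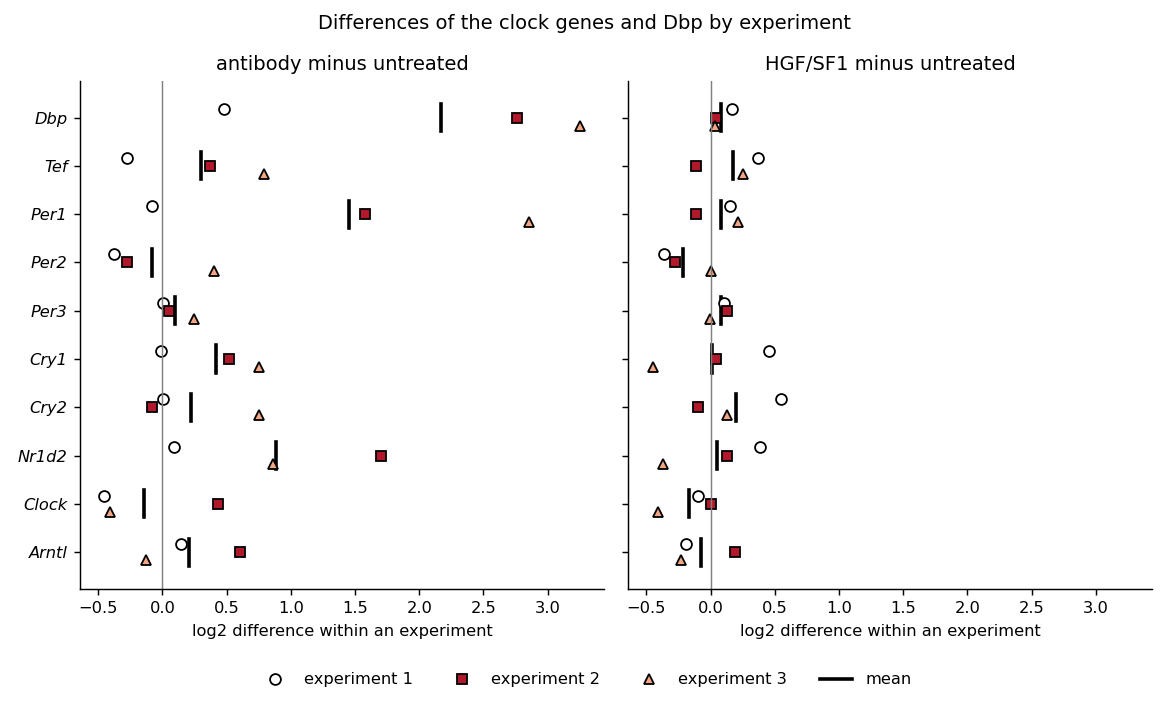
Log2 difference of each member within each experiment (symbols) and its mean over the 3 experiments (bar), for antibody minus untreated on the left and HGF/SF1 minus untreated on the right, on 1 scale. On the left, Dbp reaches 2.76 and 3.26 in experiments 2 and 3 and 0.48 in experiment 1, while on the right its values are 0.04, 0.03 and 0.17.

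The experiments differed in how far the members moved. In experiment 1, 0 of the 10 members were at least 2-fold higher on the antibody array than on the untreated array, and 5 of the 10 were higher at all. In experiment 2, Dbp, Per1 and Nr1d2 were at least 2-fold higher, and in experiment 3 Dbp and Per1 were. The share of all genes that were at least 2-fold higher was 0.678% in experiment 1, 2.69% in experiment 2 and 1.98% in experiment 3 for antibody against untreated. For antibody against HGF/SF1 it was 3.06%, 2.67% and 2.28%, highest in experiment 1, where 0 members reached it. Without the antibody array of experiment 1, limma called 4 members higher, Dbp, Per1, Cry1 and Nr1d2, and Dbp was higher by 2.89 (SE 0.40). In that fit 17.7% of all probe sets were called, against 11.8% with all arrays, and 1088 probe sets passed an adjusted p under 0.05. Nothing is read from the members' calls in it, since it leaves out the antibody array on which Dbp was lowest. With the experiment as a block, Nr1d2 joined Dbp and Per1 among the called members, and 18.2% of all probe sets were called. Per1 was no longer called in 10 of the 12 fits that left out an array or an experiment, the exceptions being those without the antibody array of experiment 1 or without all of experiment 1. Dbp was called in 11 of these 12, and without experiment 3 its difference was 1.62 (SE 0.75). In that fit, which called 6.39% of all probe sets, Per2, lower, was the only member called. Its brighter probe set read 4.94 on both HGF/SF1 arrays of that fit, and 4.92 and 4.94 on the antibody arrays. Such repeated values limit what the call can show. The second probe set of Per2 differed by 0.32 in experiment 1 and by -0.30 in experiment 2.

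HGF/SF1, which was not used in choosing the members, can be tested against untreated cells. At an unadjusted p under 0.05, limma called 0 of the 10 members, where 0.839% of all genes were called. At an adjusted p under 0.05, 0 members passed, as did 0% of all genes. Dbp differed by 0.08 (SE 0.60, 95% confidence interval -1.29 to 1.46, adjusted p = 1 in limma), and was higher by 0.17, 0.04 and 0.03 in the 3 experiments. The interval still takes in a more than 2-fold change either way. The fit draws 1 spread from all 3 conditions, and the SD of Dbp was 1.27 on antibody arrays. For Per1 the difference was 0.08 (SE 0.62, interval -1.34 to 1.51), made of 0.15, -0.12 and 0.21. Its SD was 1.54 on antibody arrays and 0.12 in each of the other conditions, so the antibody arrays widen this interval. For Nr1d2 the difference was 0.05 (SE 0.40, interval -0.88 to 0.97). Tef differed by 0.17 (SE 0.25), Cry2 by 0.19 (SE 0.22) and Cry1 by 0.01 (SE 0.31). Clock differed by -0.17 (SE 0.25), Arntl by -0.08 (SE 0.17), Per3 by 0.08 (SE 0.12) and Per2 by -0.21 (SE 0.14, interval -0.54 to 0.11). The median difference of the members was 0.06, against 0.01 for all genes. These intervals bound the changes and do not show that there was none. The untreated arrays are shared with the comparison for the antibody.

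The differences between antibody and HGF/SF1 arrays share the antibody arrays and are again descriptive. Dbp was higher by 2.09 (SE 0.60), made of 0.31, 2.72 and 3.22. Per1 was higher by 1.37 (SE 0.62) and Nr1d2 by 0.84 (SE 0.40), but in experiment 1 these 2 genes read lower with the antibody than with HGF/SF1, by differences of -0.23 and -0.30. All 10 members had means above those of HGF/SF1, with a median of 0.21 against -0.01 for all genes. The differences were small for Per2, Per3, Cry2, Clock and Tef, at 0.13, 0.02, 0.03, 0.02 and 0.13, and each turned below 0 in at least 1 fit without an array or experiment. By this comparison limma called 1 of them, Dbp, where 14.1% of genes were called. At the adjusted threshold 0 passed, against 0.0242% of genes. With the experiment as a fixed or random block, 3 were called, Dbp, Per1 and Nr1d2. These fits called 19.8% and 17.9% of all probe sets, against 13.2% without a block.

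Other genes of the clock were followed in lists of general knowledge that were also drawn up with earlier results of these data known. Of 9 measured core clock genes that are not members, 3 were called higher and 0 lower for antibody against untreated by limma. Of all genes, 4.68% were called higher in this comparison. Nothing is read from the counts of calls in these lists. Bhlhe40, encoding the repressor DEC1 that binds E-boxes, was at 9.50, 10.83 and 10.85 on antibody arrays, 9.54, 9.26 and 8.84 on HGF/SF1 arrays and 9.17, 9.40 and 8.80 on untreated arrays, a difference of 1.27 (SE 0.37) from untreated. Nr1d1, encoding REV-ERBα, was at 6.66, 8.40 and 9.01 on antibody arrays, 6.64, 6.93 and 7.32 on HGF/SF1 arrays and 6.57, 6.42 and 7.16 on untreated arrays, a difference of 1.31 (SE 0.53). The antibody array of experiment 1 was again close to the other conditions for both genes. Rorb, a ROR receptor that activates Arntl, differed by 0.85 (SE 0.36). This value rests on experiment 2 with 1.92, against 0.16 and 0.45 in experiments 1 and 3. A single probe set names Rorb, with a mean of 5.13 over the 9 arrays. That is below the median over all probe sets, so Rorb was not fitted with dim probe sets left out. The other 6 measured genes, Npas2, Arntl2, Rora, Bhlhe41, Timeless and Tipin, lay between -0.23 and 0.40. The median of this list was 0.30. Bhlhe40 was the only gene of the list called without the antibody array of experiment 2 or 3, or without the untreated array of experiment 1 or 2. Without the HGF/SF1 array of experiment 2, Bhlhe40 and Bhlhe41 were called, without the whole of experiment 2 or 3 the count was 0, and with the experiment as a fixed block, but not as a random one, Rorb was no longer called.

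Of the enzymes and other proteins that modify clock proteins, 1 of 11 measured genes was called by its brightest probe set, higher. Of all genes, 12.6% were called and 4.68% were called higher. Csnk1e, encoding casein kinase 1ε, which phosphorylates PER proteins, read 10.03, 10.60 and 10.90 on antibody arrays, 9.78, 9.72 and 10.02 on HGF/SF1 arrays and 9.28, 9.82 and 9.90 on untreated arrays. Its difference from untreated was 0.85 (SE 0.24), with 0.76, 0.78 and 1.00 in the 3 experiments. Its second probe set, at 0.81 (SE 0.45) and not called, had 0.24, 1.10 and 1.08. Csnk1e was not called without experiment 2, and with the experiment as a fixed block Fbxw11, a subunit of ubiquitin ligases, was called higher as well. The median of this list was -0.02, near that of all genes. Nfil3, the bZIP repressor that competes with DBP for D-boxes, differed by 0.95 (SE 0.48), with 1.15, 1.11 and 0.60. Its untreated array of experiment 1 read 5.93, the lowest of all arrays, and HGF/SF1 minus untreated was 1.54 in that experiment. Hlf differed by 0.06 (SE 0.15). Of Nfil3 and Hlf, 0 were called, and Nfil3 was called with the experiment as a block.

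**Figure D3:**
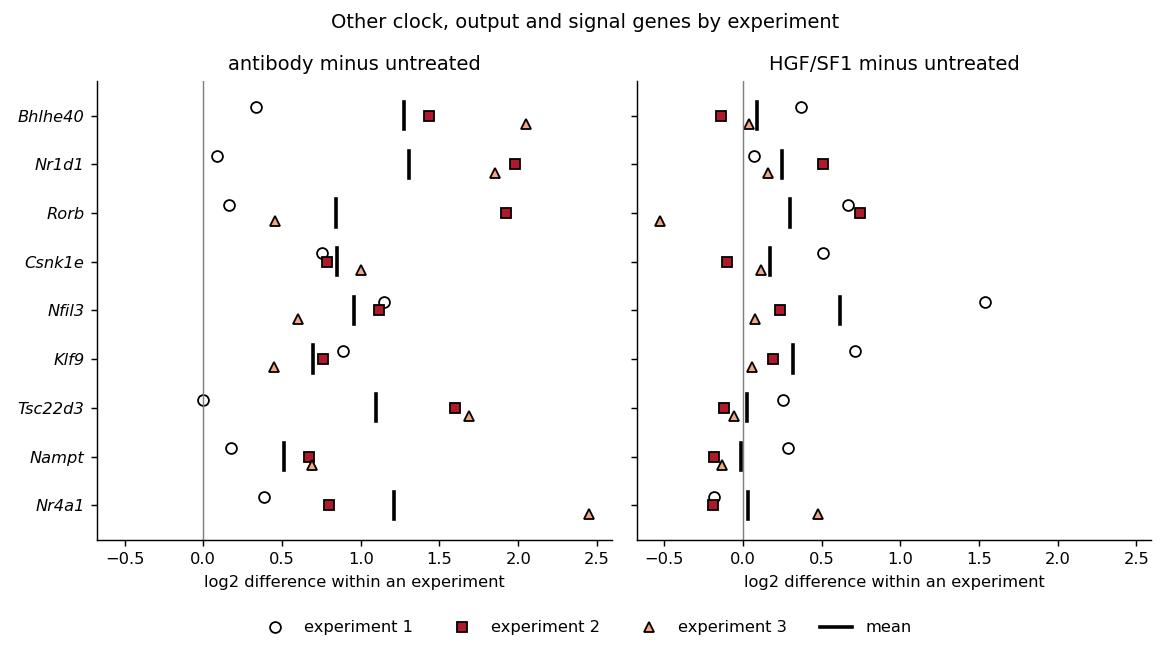
Log2 difference within each experiment (symbols) and its mean over the 3 experiments (bar) for Nfil3 and for genes of the other clock lists that were called for antibody against untreated, shown for antibody minus untreated on the left and HGF/SF1 minus untreated on the right. Bhlhe40, Nr1d1 and Tsc22d3 lie near 0 to 0.34 in experiment 1 and at 1.43 or above in experiments 2 and 3, whereas Csnk1e and Klf9, by their brightest probe sets, are higher by 0.45 to 1.00 in all 3 experiments.

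Of 12 measured genes known as outputs of the clock, 3 were called higher and 0 lower, where 4.68% of all genes were called higher. Klf9, a Krüppel-like factor driven by the clock and by glucocorticoids, was higher by 0.70 (SE 0.17), with 0.89, 0.76 and 0.45 for its brightest probe set. By mean difference 7 of its 7 probe sets were higher, as they also were for HGF/SF1 against untreated. In experiment 3 the probe sets next in brightness differed by -0.28 and -0.14 with the antibody, and the others were higher. Tsc22d3, encoding the glucocorticoid-induced leucine zipper protein, was higher by 1.09 (SE 0.40), with -0.00, 1.60 and 1.69. Nampt, the rate-limiting enzyme of NAD salvage, was higher by 0.51 (SE 0.20). The median of the list was 0.29. With the experiment as a fixed or random block, Wee1 was called higher as well and Alas1, an enzyme of haem synthesis, lower. Without the antibody array of experiment 1, 6 of the 12 genes were called, all higher, in a fit that called 17.7% of all probe sets. Nothing is read from that count, since the fit leaves out the antibody array on which Dbp was lowest. Without the antibody array of experiment 2, Klf9 was the only gene of the list called. Without that of experiment 3, Klf9 was called higher and Alas1 lower. Klf9 was also the only gene of the list called without the untreated array of experiment 3 and without the whole of experiment 2 or 3.

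Another list held 11 measured genes of signals that can set the clock, such as immediate early genes and glucocorticoid targets. Of these, 1 was called, where 12.6% of all genes were. It was Nr4a1, an orphan nuclear receptor, at 1.21 (SE 0.52), with 0.39, 0.80 and 2.45. That call was lost in 10 of the 12 leave-outs, and held without experiment 1 or without its antibody array. With the experiment as a fixed block, Dusp1, a phosphatase of MAP kinases, was called higher as well. Fos and Egr1, which encode immediate early transcription factors, spread more among antibody arrays than any difference between means. Fos read 8.20, 5.26 and 8.87 on antibody arrays, 8.15, 8.03 and 8.04 on HGF/SF1 arrays and 8.33, 7.92 and 8.41 on untreated arrays. Egr1 read 6.91, 3.91 and 9.18 on antibody arrays, 5.46, 6.76 and 6.94 on HGF/SF1 arrays and 7.26, 7.51 and 7.47 on untreated arrays. Both genes were lowest of all arrays on the antibody array of experiment 2 and highest on that of experiment 3, whereas Dbp was high on both. For HGF/SF1 against untreated, limma called 0 genes in each of these 5 lists, where 0.839% of all genes were called. For antibody against HGF/SF1, 14.1% of all genes were called. Of these lists, Bhlhe40, Csnk1e, Wee1, a kinase that holds back mitosis, Nampt, Tsc22d3 and Nr3c1, the glucocorticoid receptor gene, were called higher with the antibody. Ddb1, an adaptor of cullin ubiquitin ligases, and Alas1 were called lower. The call of Ddb1 was lost with the fixed block, with arrays centred on their medians and with dim probe sets left out. Among the leave-outs, it held only without the HGF/SF1 array of experiment 2 or without the untreated array of experiment 1. Of the outputs, Wee1 was the only gene called without experiment 2, without its antibody array, or without the HGF/SF1 array of experiment 2 or 3. Without experiment 3, 0 were called, and without its antibody array Wee1 and Alas1 were. Csnk1e was not called without experiment 2 or 3, without the antibody array of either, or without the HGF/SF1 array of experiment 1 or 2. Bhlhe40 was not called without experiment 2 or 3. Nr3c1 was not called in 7 of the 12 leave-outs. Of all these lists, 0 genes passed an adjusted p under 0.05 in limma in any of the 3 comparisons with all 9 arrays.

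The profile of Dbp over the 9 arrays was compared with those of 6722 genes above the median level, by the root mean square difference between log2 profiles centred on their means. This measure has no test, uses values that chose Dbp, and says nothing of a shared control. The closest genes were Lcorl at 0.449, Bhlhe40 at 0.527, Fam161a at 0.542, Tsc22d3 at 0.558 and Srgap2 at 0.572. Each of the 5 was highest on the antibody arrays of experiments 2 and 3, and Lcorl was also higher by 1.46 in experiment 1, where Dbp was higher by 0.48. Of the members above the median level, Per1 stood at rank 12 with 0.668 and Nr1d2 at rank 77 with 0.832, while Tef, Arntl, Cry2 and Clock had ranks from 545 to 2289.

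**Figure D4:**
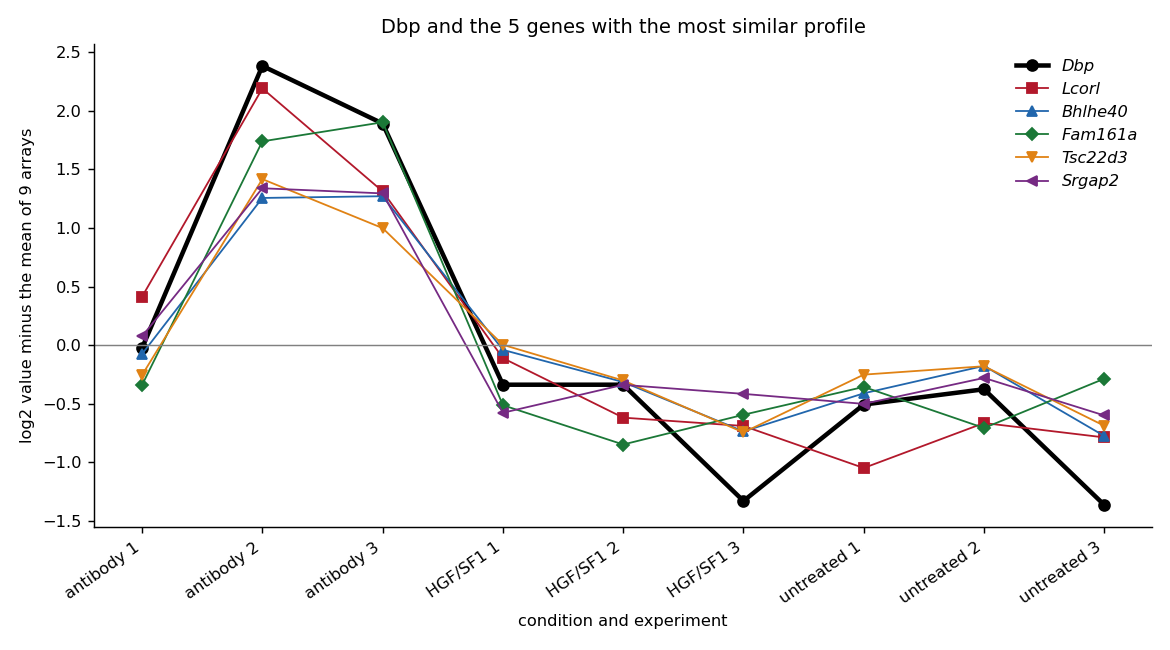
Log2 value minus the mean of the 9 arrays for Dbp (thick line) and the 5 genes with the smallest root mean square difference to it, with arrays ordered by condition and experiment; lines only join the points of a gene. All 6 genes are highest on antibody arrays 2 and 3, and Dbp is lowest on HGF/SF1 array 3 and untreated array 3.

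The arrays were checked for the labelled cell type and for markers of other cells. The keratins Krt8, Krt18 and Krt19 of biliary and progenitor epithelium read between 12.9 and 14.1 on all arrays, whereas the progenitor markers Epcam and Afp were low, Epcam between 4.09 and 4.60. Of 6 measured macrophage markers, 1 was called higher with the antibody than untreated, where 4.68% of all genes were. It was Cd68, a lysosomal glycoprotein, at 2.60 (SE 0.65), with 1.54, 2.95 and 3.30 in the 3 experiments. The summed linear level of the 6 was 2276 to 5381 on antibody arrays, 3447 to 4498 on HGF/SF1 arrays and 3446 to 4760 on untreated arrays. The leukocyte and macrophage genes Ptprc, Csf1r, Adgre1 and Lyz2 read below the array median of 5.91 to 6.08 everywhere. Cd14, the remaining marker of that list, made up most of the summed level and read 12.3, 11.3 and 10.5 on antibody arrays, 11.8, 12.1 and 11.7 on HGF/SF1 arrays and 12.0, 12.2 and 11.7 on untreated arrays. It differed by -0.54 (SE 0.39) from untreated, opposite to Cd68. On average over the 9 arrays, 0 of 7 mesenchymal and 0 of 5 endothelial marker genes lay above the median of all probe sets. The endothelial cadherin Cdh5 reached 6.14 and 6.31 on the antibody arrays of experiments 2 and 3, above those arrays' medians. In experiment 3 it read 5.90 on the HGF/SF1 array and 6.00 on the untreated array. Over the 3 experiments, antibody minus untreated was 0.49 (SE 0.60) for Cdh5. The antibody minus untreated differences of Cd68 and Dbp both rose from experiment 1 to experiment 3. In experiment 1, Cd68 was higher by 1.54 and Dbp by 0.48. On HGF/SF1 and on untreated arrays, Cd68 was highest in experiment 3, where Dbp was lowest. The part of these markers in the result was not tested.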

How the data were processed

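The deposited table gives log2 values per probe set for 9 Affymetrix Mouse430A_2 arrays. The authors processed the arrays in affylmGUI with rma background correction; the normalization between arrays is not given in the sources used here, and array medians were 5.91 to 6.08. Intensity files were not used. The members and gene lists were chosen with earlier results of these data known.

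Of 22690 probe sets, 64 controls were left out. Probe sets naming 1 gene (20380) gave 12393 genes, each represented by its brightest probe set on average; 691 named several genes and 1555 none. A mean per condition was fitted to all 22626 probe sets with limma 3.58.1 (lmFit and eBayes, 6 residual and 2.39 prior degrees of freedom) in R 4.3.3. Tests were two-sided, and a gene was called at an unadjusted p under 0.05, since the methods state no adjustment; adjusted p-values are Benjamini-Hochberg over all probe sets. The number of arrays limits the precision. The fit was tested on simulated data.

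Titles carry a day, each with all 3 conditions, and the study states that each experiment held all conditions, so arrays were paired by experiment. After condition means were removed, arrays of 1 experiment correlated at r of 0.0958 to 0.591 over 9 pairs, and arrays of different experiment and condition at -0.484 to 0.0308. The fit follows the methods, without a block. Whether the experiments used separate cultures is not stated further, so p-values measure the spread between these arrays.

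Named genes are all members, up to 4 called genes of each other list by smallest p, and the 5 genes most like Dbp. Nfil3, Hlf, Fos, Egr1, Fbxw11, Fbxw7, Csnk1d, Csnk2a1, Dusp1, the remaining core clock genes and the markers were also named, after their values were seen. Lists covered other core clock genes, modifiers of clock proteins, PAR bZIP factors with their repressor, clock outputs, signals that set the clock, and markers of progenitor epithelium, hepatocytes, macrophages, mesenchyme and endothelium. Members of these lists that are not counted as measured were not analysed here. Of 6 measured hepatocyte markers, 0 were called in any comparison, and of 8 of progenitor epithelium 0 against untreated. Promoters came from RefSeq (GRCm38.p6), matched by symbol. Alternatives were each array or experiment left out, the experiment as a fixed or random block, median centring, quantile normalization, a filter on dim probe sets, an intensity trend, the mean over probe sets and the adjusted threshold; for the other lists they were added after seeing the data.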

Additional observations from a re-analysis of the deposited data

How the results depend on the processing

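Outside the fits that leave out an array or experiment, every member that was fitted kept its direction for HGF/SF1 against untreated, and 0 were called. For antibody against untreated, the number of members called was 2, and 0 at the adjusted threshold, 1 to 5 when an array or experiment was left out. Without experiment 3, the 1 was Per2, lower, a call limited by its repeated values. With the experiment as a block the number was 3, and the blocked fit changed no other member call in this comparison. For antibody against HGF/SF1 it was 1, and 3 with the experiment as a fixed or a random block, 2 with an intensity trend, 0 at the adjusted threshold and 0 to 4 in the leave-outs. For HGF/SF1 it was 0 to 1 in the leave-outs, the 1 being Per2, lower by a difference of -0.32 without experiment 3. In that fit 1.07% of all probe sets were called, and both HGF/SF1 arrays read 4.94 for Per2.

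Over all probe sets, 2674 were called for antibody against untreated, 4114 with the block, 5 at the adjusted threshold and 912 to 4014 in the leave-outs. For antibody against HGF/SF1, the counts were 2978, 4490 with the block, 5 adjusted and 1257 to 4114. For HGF/SF1 against untreated they were 192, 411 with the block, 374 with the random block, 14 with dim probe sets left out, 0 adjusted and 123 to 366.

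The sign for HGF/SF1 against untreated changed in leave-outs for 6 members. Their ranges were -0.23 to 0.41 for Dbp, -0.021 to 0.32 for Tef, -0.20 to 0.25 for Cry1, -0.0054 to 0.34 for Cry2, -0.21 to 0.0022 for Arntl and -0.12 to 0.29 for Nr1d2. Median centring of the arrays moved the median of all probe sets for antibody against untreated to 0.06 and added Nr1d2 to the calls, and so did the intensity trend. The causes of these changes were not tested. Low signal limits Per2, Per3 and Cry1, which lay below the median over all probe sets and were not fitted with dim probe sets left out.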
